A study of Mus musculus with 72 samples.

Results

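The comparison described here sets the blood transcripts of mice 7 days after 0.25 Gy of neutrons against those of sham-irradiated controls killed on the same day. Members were chosen by the sample titles, which gave 5 arrays for the neutron group and 6 for the controls, together 11 of the 72 arrays of the series. The mice were C57BL/6 males, irradiated at 8 to 10 weeks of age. The neutron group was exposed on a rotating wheel to an accelerator beam with a broad energy spectrum, which also carries a γ-ray component. The controls, marked 0 Gy here, rode the same wheel without beam. Each array holds the blood RNA of 1 mouse, taken by cardiac puncture into a stabilising solution, depleted of globin transcripts and labelled with a single dye. A mouse is named below by its group and replicate number.

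Whole blood holds red cells and their immediate precursors, the reticulocytes, beside leukocytes and platelets. Reticulocytes have lost their nucleus but still carry messenger RNA for heme synthesis, for the membrane skeleton and for the ubiquitin-dependent removal of proteins and organelles, so their transcripts make up a large part of blood RNA. Lymphocytes, B cells above all, are among the most radiation-sensitive cells of the blood, and the marrow refills the blood over the days that follow an exposure. In RNA from whole blood, fewer cells of a type and less RNA per cell cannot be told apart.

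Levels are log2 signals relative to the median detected probe of the same array, so that a negative level means dimmer than that median, and levels of different genes are not compared. A gene was called at a limma p below 0.001 together with a false discovery rate (FDR, after Benjamini and Hochberg) below 0.05 over the 10863 genes tested. The blood origin was visible on all arrays: all 20 measured B cell markers, all 18 NK and cytotoxic markers, all 19 monocyte markers and 18 to 20 of 20 red cell membrane genes were well above background in each mouse. The arrays lay on 3 slides. Controls 1 to 4 were on slide 3, controls 5 and 6 shared slide 1 with neutron mice 1 and 2, and neutron mice 3 to 5 were on slide 2. Between 54.3 and 63.9% of spots were well above background in the controls (median 62.5%) and between 49.5 and 58.2% after neutrons (median 54.1%), and the median signal of an array was 32.2 to 50.5 in the controls and 15.8 to 28.0 after neutrons. The neutron arrays were therefore dimmer, without overlap in the median signal. With the share of spots well above background as a covariate, no gene was called and 15 had an unadjusted p below 0.001. Pairs of arrays correlated over the tested genes at 0.912 to 0.988 within the controls, 0.964 to 0.986 within the neutron group and 0.917 to 0.989 between the groups.

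In all, 3 transcripts rose after 0.25 Gy and none fell, which is 0.0276% of the genes tested. They were B230398E01Rik, a long non-coding RNA, A4galt, which encodes the enzyme that makes the glycolipid globotriaosylceramide, and F9, which encodes coagulation factor IX, a vitamin K-dependent clotting factor made mainly in the liver. The first 30 bases of the 60-base probe that measured each one are shown because the calls rest on a single probe per gene, with the mm9 position that the files give for the whole probe. The position within exons or untranslated parts was not determined, since no mm9 annotation was used here.
B230398E01Rik, chr3:94763053-94763112: ttatcttctgcttctttggcttcctgggaa
A4galt, chr15:83057192-83057251: ggtttgtggaaatcctttaggttttaaaaa
F9, chrX:57282894-57282953: ataaggcgtgatggttcttgatacagagat

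In the controls the B230398E01Rik level was -1.10 to -0.10, with a median of -0.75. In the neutron mice it was 0.76, 1.41, 1.49, 1.64 and 2.38, so that the lowest exposed mouse stood above the highest control. The difference was 2.22 on the log2 scale (SE 0.26), a 4.67-fold higher level, with an FDR of 0.0250 by limma. The A4galt level was -1.87 to -1.44 in the controls (median -1.51) and -0.78, -0.38, -0.34, -0.19 and -0.09 in the neutron mice. These groups did not overlap either. A4galt was higher by 1.21 (SE 0.15), or 2.31-fold, with an FDR of 0.0250 by limma. For F9 the controls lay between -1.06 and -0.45 (median -0.73) and the neutron mice at 0.04, 0.34, 0.41, 0.52 and 0.71. Again every exposed mouse was above every control, and the difference was 1.18 (SE 0.16), or 2.27-fold, with an FDR of 0.0359 by limma. All 3 probes were well above background on all 11 arrays, and no other probe on the array carries any of these names.

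With slide as a block, no gene was called, and the estimate then rests on slide 1, the only slide with mice of both groups. The differences became 1.84 (SE 0.39) for B230398E01Rik, 1.13 (SE 0.22) for A4galt and 0.94 (SE 0.25) for F9, each with an FDR of 0.244 by limma. Within slide 1 alone, with 2 mice against 2, they were 1.84, 1.13 and 0.94, the same estimates as with the block. Since the groups did not overlap over all arrays, the order of the mice on this slide was already fixed and is no further check.

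Among liver transcripts the neutron mice differed from one another. Of 38 hepatocyte markers, 13 to 25 were well above background in a control and 9 to 30 in a neutron mouse, and 5 were so on none of the arrays. Their mean level was -4.60 to -2.93 in the controls and -3.79 to -0.60 after neutrons. Over the 15 hepatocyte markers tested, neutron mouse 4 stood 2.36 above the control mean, and the other neutron mice at most 0.23. F9 was 0.52 in mouse 4 and 0.71 in mouse 5, and without mouse 4 its difference was 1.15 (SE 0.18), with an FDR of 0.140 by limma.

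Below these 3 genes lay a wide band of transcripts just outside the FDR limit. There were 176 genes with an unadjusted p below 0.001, 170 of them higher after neutrons and 6 lower. At this limit 17 were higher and 15 lower with slide as a block, and within slide 1 alone 1 was higher and 14 lower, so that the balance between the directions did not hold there. Those not called had an FDR of 0.0519 to 0.0603. The median difference was 1.00 among the 170 higher genes and -0.72 among the 6 lower ones, and the groups did not overlap for 144 and 5 of them. At an unadjusted p below 0.05 there were 1878 higher genes (17.3%) and 689 lower (6.34%), and over all genes tested 4.21% were higher and 1.12% lower without overlap between the groups. That balance moved with the scaling. It was 1433 higher against 1225 lower with dim spots missing, 1376 against 1168 with the median over all spots, 1588 against 917 with quantile normalization, 5032 against 3554 under normexp and 20 against 13670 with spike-in centring. In the values used here, the excess of higher over lower genes was present in each of 5 equal brightness classes, with 284, 357, 328, 351 and 558 higher against 135, 130, 169, 143 and 112 lower from the dimmest to the brightest class.

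**Figure D1:**
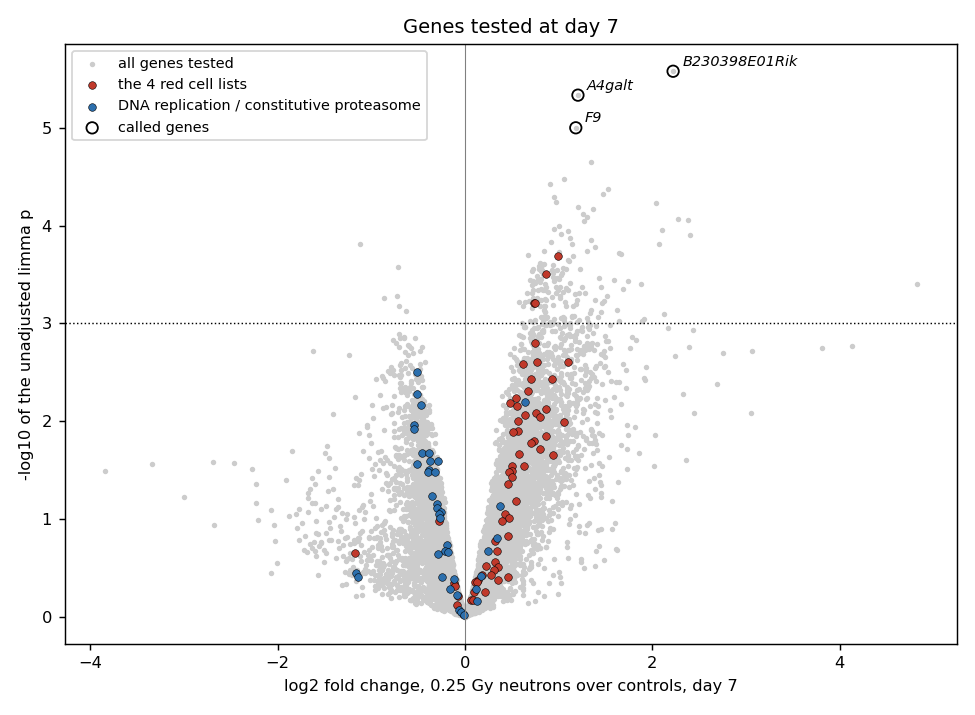
Each point is 1 of the 10863 genes tested, with the log2 fold change of 0.25 Gy neutrons over controls at day 7 on the x axis and -log10 of the unadjusted limma p on the y axis, and the dotted line marks a p of 0.001. Circles mark the 3 called genes, red points the members of the red cell membrane, heme synthesis, erythroid regulator and reticulocyte maturation lists, and blue points the DNA replication and constitutive proteasome lists; the red points lie mostly right of 0 and the blue ones mostly left.

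The largest differences among genes with a p below 0.001, groups without overlap and a probe well above background throughout 1 group were, beside B230398E01Rik, those of Cfap44 (2.38, SE 0.41), which encodes a protein of cilia and flagella, an unnamed transcript measured by probe A_55_P2044292 (2.28), Rs5-8s1 (2.12), Xntrpc (2.04), a second unnamed transcript measured by probe A_55_P2084851 (1.92), Pifo (1.88), a gene of the primary cilium, Mapk1ip1l (1.68), Cdc27 (1.66), which encodes a core subunit of the anaphase-promoting complex, and Defb9 (1.64), a beta-defensin gene. None of these passed the FDR limit. Xntrpc was 1.61 to 3.29 in the controls (median 2.80) and 4.11, 4.53, 4.62, 4.66 and 5.49 after neutrons, which leaves a wide gap between the groups. Cdc27 was 0.83 to 2.02 in the controls (median 1.49) and 2.14, 2.74, 3.26, 3.82 and 3.51 after neutrons. Here neutron mouse 1 lay just above the highest control, and with slide as a block the difference was 0.74 (SE 0.39). The probe without a name, A_55_P2084851, likewise gave 0.84 with slide as a block, and Defb9 0.98. Cfap44 and A_55_P2044292 were dim, and their probes were well above background in all 5 neutron mice and in 4 and 5 of the 6 controls. Mapk1ip1l had the opposite sign without the fold filter, where a brighter probe stood for the gene.

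On the lower side, 5 genes had a p below 0.001 without overlap, and none passed the FDR limit. They were Med8 (-0.86, SE 0.18), a subunit of the Mediator complex of transcription, Bnip1 (-0.72), a SNARE protein of the endoplasmic reticulum, a transcript that the array calls NAP111545-1 (-0.71), Slc25a25 (-0.71), a mitochondrial carrier of ATP-Mg and phosphate, and Nudc (-0.63), a dynein-associated protein. Bnip1 was -0.79 to -0.60 in the controls (median -0.67), a narrow range, and -1.07, -1.04, -1.64, -1.69 and -1.56 after neutrons. The 2 neutron mice on slide 1 were nearest to the controls. Nudc was -0.18 to 0.47 in the controls (median 0.26) and -0.26, -0.56, -0.45, -0.35 and -0.50 after neutrons. With slide as a block, Bnip1, NAP111545-1 and Slc25a25 stood at -0.43, -0.38 and -0.37. Without the fold filter, where a brighter probe stood for the gene, Med8 was at 0.04. The next in order of p among genes without overlap were Trip13 (-0.65), an ATPase of the spindle checkpoint, Aarsd1 (-0.53), Gfer (-0.65), a sulfhydryl oxidase of the mitochondrial intermembrane space, Slc22a5 (-0.70), a carnitine transporter, and Rgcc (-0.77), each with an FDR of 0.0632 to 0.0646 by limma. Trip13 and Slc22a5 were well above background in 3 and 4 of the 5 neutron mice.

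**Figure D2:**
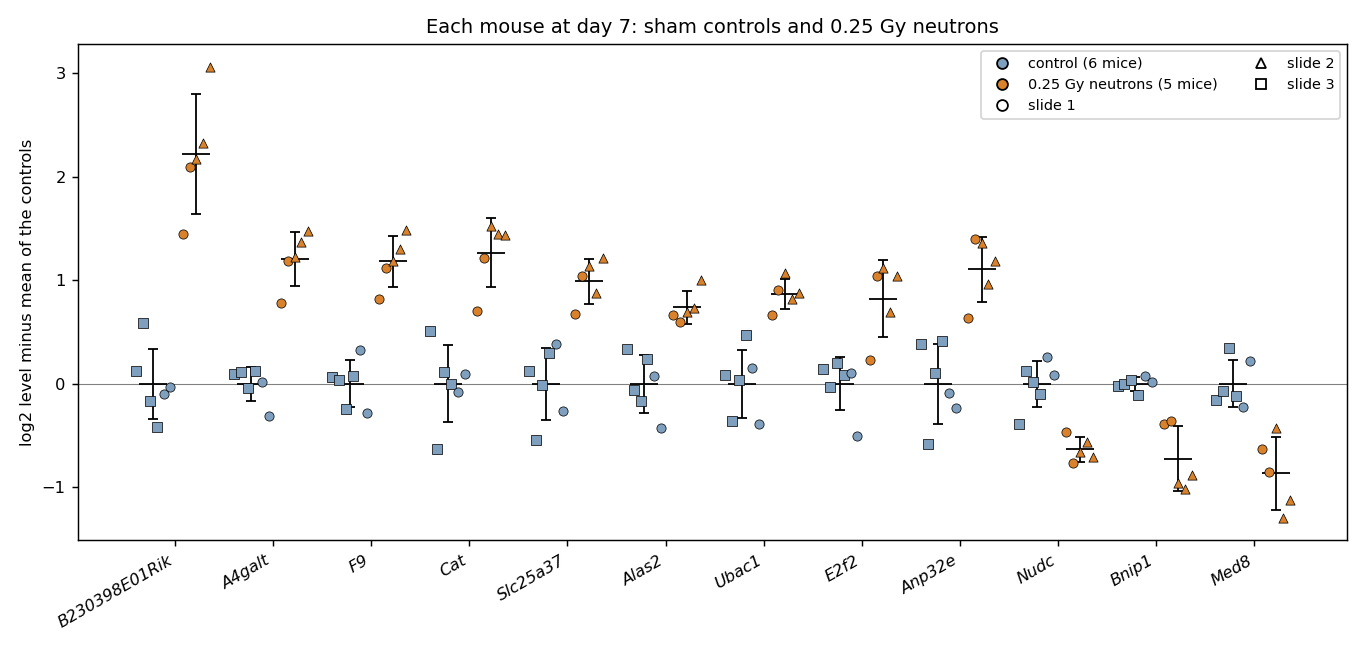
The y axis gives the log2 level of each gene in each mouse minus the mean of the 6 controls, with a horizontal bar at the group mean, error bars of 1 SD and the shape of a point for its slide. The 3 called genes stand at the left, and each of the 12 genes shown has groups that do not overlap.

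The transcripts that describe red cell formation were higher as groups, although no member was called. They are given by 4 lists, which are not separate. Epb41 and Trim10 stand in both the reticulocyte and the membrane list. Ubac1 and Wdr26 of the reticulocyte list are also among the genes the study brought forward, which were chosen on arrays of this series. In the reticulocyte maturation list, which holds the ubiquitin and organelle-clearance genes of the last steps of red cell formation, 14 of 19 tested genes were higher at an unadjusted p below 0.05 and none was lower, against 17.3% and 6.34% of all genes. Its median difference was 0.57, against 0.06 over all genes tested. The heme synthesis list had 8 of 14 higher and none lower, with a median of 0.50, the erythroid regulator list 6 of 13 higher and none lower, with a median of 0.43, and the red cell membrane list 7 of 19 higher and none lower, with a median of 0.46. Leaving out each mouse in turn, these counts stayed between 12 and 15 of 19, 5 and 8 of 14, 4 and 7 of 13, and 7 and 13 of 19, the last of these being highest without neutron mouse 1.

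Within the heme pathway, Slc25a37, the mitochondrial iron importer of erythroid cells, and Alas2, the erythroid enzyme of the first step, had the smallest p. Slc25a37 was 8.32 to 9.24 in the controls (median 8.92) and 9.53, 9.90, 9.74 and 10.07 in neutron mice 1, 2, 4 and 5, with mouse 3 between mice 2 and 5, a difference of 0.99 (SE 0.19) with an FDR of 0.0519 by limma. Alas2 was 9.80 to 10.56 in the controls (median 10.24) and 10.89, 10.82, 10.92, 10.96 and 11.23 after neutrons, a difference of 0.74 (SE 0.16) with an FDR of 0.0528 by limma. For both, the groups did not overlap. Of the reticulocyte genes, Ubac1, part of a ubiquitin ligase, was higher by 0.87 (SE 0.17) and Ube2o, the ubiquitin-conjugating enzyme that clears ribosomes from reticulocytes, by 0.75 (SE 0.16), again without overlap. Ubac1 was 4.89 to 5.75 in the controls (median 5.35) and 5.94, 6.19, 6.35, 6.10 and 6.16 after neutrons.

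Among the membrane genes, Epb41, which encodes the skeletal protein that ties spectrin to actin, was higher by 0.77 (SE 0.20) and Dmtn, an actin-bundling protein of the same skeleton, by 0.71 (SE 0.20). With quantile normalization Epb41 was at 0.13, and Slc25a37 of the heme list at 0.50, while Alas2 was not among the genes kept. Of the regulators, Tfrc, the transferrin receptor by which erythroid cells take up iron, was higher by 1.10 (SE 0.29), and Ahsp, which stabilises free alpha-globin, by 0.93 (SE 0.26). The Ahsp level was 4.99 to 5.66 in the controls (median 5.33) and 5.20, 6.57, 6.55, 6.54 and 6.56 after neutrons. Neutron mouse 1 therefore lay within the control range and the other 4 above it, close together. The same mouse was the lowest of its group for the mean of the red cell membrane list, whose neutron range was -0.02 to 0.89 relative to the control mean, with controls at -0.56 to 0.33. For the mean of the heme list the ranges were 0.17 to 0.50 and -0.29 to 0.18, and for the reticulocyte list 0.16 to 0.77 and -0.38 to 0.25, so that all of these overlapped.

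The promoters of these genes were searched for the 6-letter words AGATAA and TGATAA on both strands, the sequence bound by the GATA factors that drive red cell genes. In the RefSeq promoter windows of 300 bases on GRCm38.p6, of which 250 precede the start site, a match was present for 21.0% of 27025 genes. It was present for 3 of the 10 heme synthesis genes with a window, 7 of 13 red cell membrane genes, 6 of 10 erythroid regulators and 1 of 17 reticulocyte maturation genes. A match is a description of the letters only. Stretches to show were sought for Alas2, Slc25a37, Ubac1, Epb41, E2f2, Fech, Ahsp and Klf1, a regulator of the globin genes. Only Alas2 and Klf1 gave one. The others can lack a window, lack a match or have one only near or after the start site. The stretches of 30 bases carry the match, read on the gene's strand, in capitals.
Alas2, chrX:150547319-150547348, plus strand, match starting 86 bases before the start site: ctactttgctttTTATCTttagcagaggcc
Klf1, chr8:84901890-84901919, plus strand, match starting 80 bases before the start site: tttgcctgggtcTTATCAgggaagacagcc

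These list medians differed between settings. With dim spots set to missing they were 0.47 for the reticulocyte, 0.45 for the heme, 0.31 for the regulator and 0.38 for the membrane list. Centring on the spike-in spots, which lowered the median of all genes to -1.23, turned all 4 medians negative, to between -0.87 and -0.66, still above that shift. A normexp background correction with an offset of 50 gave medians of -0.24 for the reticulocyte, 0.07 for the heme, -0.17 for the regulator and -0.08 for the membrane list over the same genes. Among the genes kept under normexp, 1 of 20, 4 of 14, 4 of 14 and 6 of 20 members were higher at an unadjusted p below 0.05. In all, 5032 of 12960 genes were higher there, so the excess of higher members was not present under that correction. That correction moved genes by their brightness: the median difference of the genes ran from 1.13 in the dimmest class through 0.73, 0.21 and -0.48 to -0.80 in the brightest. Measured from the median of its own class, a member was typically higher by 0.43 in the reticulocyte, 0.30 in the heme, 0.10 in the regulator and 0.22 in the membrane list under normexp, against 0.52, 0.43, 0.33 and 0.37 in the values used here. With quantile normalization the medians were 0.45, 0.14, 0.44 and 0.44, and with slide as a block 0.54, 0.46, 0.67 and 0.54. Among the genes kept under quantile normalization, 8 of 18, 5 of 13, 6 of 13 and 6 of 19 members were higher at an unadjusted p below 0.05. In all, 1588 of 10877 genes were higher there, and 1 heme gene was lower. With slide as a block 6, 3, 4 and 1 members had an unadjusted p below 0.05 on the higher side, against 1006 of 10863 genes in all. With the share of spots well above background as a covariate these counts were 3, 2, 1 and 1, against 803 of 10863 genes in all, and the medians 0.39, 0.27, 0.49 and 0.16. Of all named genes measured under normexp, 41 of 77 had the opposite sign, and under spike-in centring 41 of 80.

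**Figure D3:**
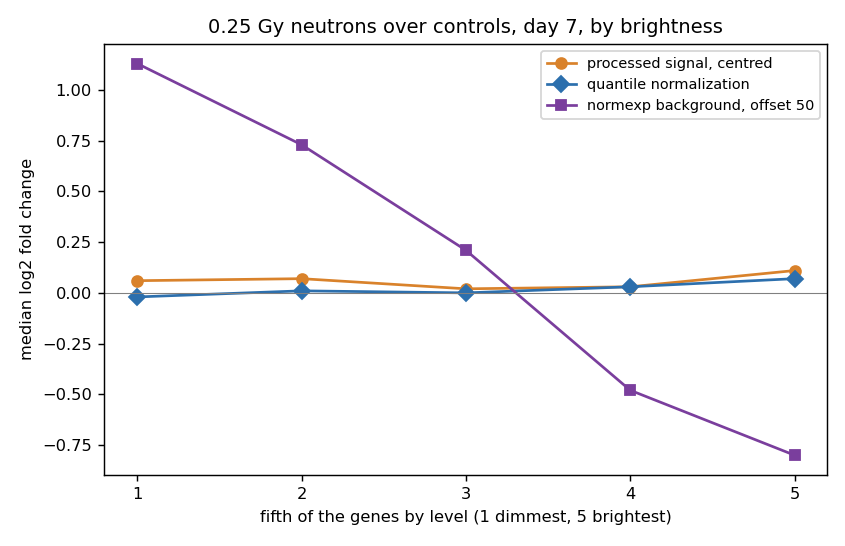
The x axis ranks the tested genes into 5 classes by level, the y axis gives the median log2 fold change of each class, and each line is a processing of the same 11 arrays. The processed signal and the quantile-normalized values stay between -0.02 and 0.11, whereas the normexp values fall from 1.13 to -0.80.

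The genes that the study brought forward, several of them of the cell cycle, form a list that was chosen on arrays of this series and so is not independent evidence of its direction. Of these 14 genes, 13 were higher at an unadjusted p below 0.05, none was called, and the median difference was 0.81, which turned to -0.19 under normexp and to -0.40 with spike-in centring. Under normexp 0 of the 14 were higher at that limit. Anp32e, a chaperone that removes the histone variant H2A.Z, was 0.15 to 1.15 in the controls (median 0.74) and 1.37, 2.13, 2.09, 1.70 and 1.92 after neutrons, without overlap. The difference was 1.11 (SE 0.21), with an FDR of 0.0519 by limma. Bsdc1 (0.80, SE 0.18) and Ubac1 also showed no overlap. Eif5, an initiation factor of translation, was higher by 1.00 (SE 0.23), Slc25a51, a mitochondrial NAD carrier, by 0.89, Wdr26, a subunit of a ubiquitin ligase active in red cell maturation, by 0.86, and Mtmr3, a phosphoinositide phosphatase, by 0.69. The cell cycle members were Cdc25b (0.82), a phosphatase that activates cyclin-dependent kinases, Ube2c (0.80) and Fzr1 (0.66), an enzyme and an activator of the anaphase-promoting complex, Nusap1 (0.72), a spindle protein, and the cyclin A2 gene Ccna2 (0.62). Wdr26, Mtmr3, Fzr1 and Ccna2 stood at 0.53, 0.37, 0.25 and 0.35 with slide as a block.

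In the E2f family and pocket protein list, E2f2, an activating E2f that is needed in late red cell formation, was 5.49 to 6.19 in the controls (median 6.09) and 6.22, 7.03, 7.11, 6.68 and 7.03 after neutrons. The difference was 0.82 (SE 0.19), with an FDR of 0.0617 by limma, and the groups were separated by the narrow gap between 6.19 and 6.22. Tfdp2, its dimerisation partner, was higher by 0.64 (SE 0.22) and the pocket protein gene Rb1 by 0.41 (SE 0.16), while E2f1 was lower by 0.40 (SE 0.16), all at an unadjusted p between 0.0152 and 0.0291.

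In the DNA replication list 9 of 28 tested genes were lower at an unadjusted p below 0.05 and 1 was higher, with a median of -0.27 that stayed negative under each of the 29 alternatives. Spike-in centring lowered the median of all genes to -1.23, so the sign there is not particular to this list. The counts did not keep their balance under normexp, where 12 of 31 were lower and 11 higher. Mcm5, a subunit of the replicative helicase, was 0.13 to 0.75 in the controls and 0.10, 0.10, -0.02, 0.03 and -0.20 after neutrons, lower by 0.51 (SE 0.14). Rrm1, the large subunit of ribonucleotide reductase, was lower by 0.51 (SE 0.15), and for both genes the groups did not overlap. Lig1, the ligase of lagging-strand synthesis, was the higher member (0.64). The mitosis list had 6 of 38 higher and 5 lower, against 17.3% and 6.34% of all genes, and a median of -0.13, which was -0.49 with slide as a block. Its higher members at this limit were Cdc25b, Ube2c, Nusap1, Fzr1, Pttg1 (0.58) and Ccna2, and its lower ones Kif20a (-0.95), Aurka (-0.64), Bub1b (-0.57), Cdca8 (-0.59) and Mad2l1 (-0.28).

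Leukocyte lists had medians between -0.25 and 0.17. No B cell gene was higher and 2 of 19 were lower at an unadjusted p below 0.05, with a median of -0.14. They were Cxcr5, a homing receptor of follicular B cells (-0.36, SE 0.12), and Cd79a, the signalling chain of the B cell receptor (-0.47, SE 0.21). Cxcr5 was 3.38 to 3.68 in the controls and 3.37, 3.14, 3.27, 3.28 and 3.07 after neutrons, which did not overlap. The MHC class II list, largely of B cell and monocyte genes, had 3 of 12 lower and none higher and a median of -0.25, with H2-DMb1, a peptide-loading chaperone, at -0.46 (SE 0.15) and H2-Oa at -0.46 (SE 0.19). With slide as a block these medians were 0.24 and -0.04, and H2-DMb1 and H2-Oa stood at -0.06 and 0.02.

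The T cell list had 1 of 23 higher and 3 lower, with a median of -0.13. Its most different members were both chains of the CD8 coreceptor and ran opposite ways: Cd8a was lower by 0.61 (SE 0.22) and Cd8b1 higher by 0.57 (SE 0.22). The groups did not overlap for Cd8a (0.65 to 1.73 in the controls, -0.06 to 0.59 after neutrons). NK and cytotoxic genes had 1 of 17 higher, the interleukin-2 receptor chain Il2rb (0.34), and a median of -0.01, neutrophil genes none of 18 in either direction and a median of 0.17, platelet genes none of 18 and a median of 0.14, and monocyte genes 2 of 18 higher and a median of 0. With slide as a block the medians were 0.07 for T cell, 0.46 for NK and cytotoxic, -0.11 for neutrophil, 0.60 for platelet and -0.03 for monocyte genes. The monocyte members were Nr4a1 (0.54) and Itgam, an integrin chain that granulocytes share (1.30, SE 0.32), at 5.34 to 6.62 in the controls and 6.59, 7.04, 7.33, 8.17 and 7.89 after neutrons. Itgam stood at 0.45 (SE 0.44) with slide as a block. Heart and skeletal muscle transcripts differed between mice. Of 24 markers, 14 to 22 were well above background in the controls and 7 to 12 after neutrons, and Myl2, the ventricular myosin light chain, was 5.99, 4.95 and 0.95 in controls 2, 5 and 3, but -2.63, -2.76 and -2.46 in controls 1, 4 and 6, which overlapped the -3.89 to -2.68 of the neutron mice.

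Genes of the radiation response itself showed little. Of 18 tested p53 targets none was higher and 2 were lower, Plk2 (-1.13, SE 0.49), well above background in 2 of the 5 neutron mice, and Ephx1 (-0.26, SE 0.12), with a median of -0.07. Of 12 double-strand break repair genes none was higher, Xrcc3 was at -0.55 (SE 0.22) and well above background in 3 of the 5 neutron mice, and the median was -0.18, or 1.02 under normexp. Mismatch and excision repair genes had 2 of 12 higher, among them the uracil glycosylase gene Ung (0.81), and 1 lower, Mlh3 (-0.47). Interferon-stimulated genes had 1 of 25 higher, Rsad2 (0.68), and 3 lower, among them Ifit2 (-0.56), with a median of 0. Acute phase genes had 1 of 9 higher, the fibrinogen chain gene Fgb (1.07), at 0.62 in neutron mouse 4 and -1.06 to -0.78 in the other neutron mice. The hepatocyte list had 2 of 15 higher, Fgb and Tat (0.46), and its median of 0.62 was -0.08 with slide as a block and -0.10 without neutron mouse 4.

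Cat, which encodes catalase, was 4.57 to 5.71 in the controls (median 5.25) and 5.91, 6.42, 6.73, 6.65 and 6.64 after neutrons, higher by 1.26 (SE 0.21) without overlap, with an FDR of 0.0519 by limma. It led the antioxidant list, in which 6 of 21 tested genes were higher and 1 lower. Gpx1, a glutathione peroxidase abundant in red cells, was higher by 0.61 (SE 0.17), which became 0.08 with quantile normalization. The list's median of 0.26 was 0.17 there and -0.51 under normexp. In the glycosphingolipid list 2 of 10 genes were higher, A4galt and St3gal5, the synthase of ganglioside GM3 (0.78, SE 0.21), with a median of -0.05. In the coagulation list 3 of 14 were higher, F9, Fgb and Proc (0.84, SE 0.26), which encodes protein C, with a median of 0.05. The shares of higher genes in the glycosphingolipid and coagulation lists, 20 and 21.4%, were near the 17.3% of all genes. Each count includes a called gene, A4galt or F9.

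The constitutive proteasome list had 4 of 11 lower and none higher, with a median of -0.27, and Psmd3 (-0.47, SE 0.14) and Psma6 (-0.55, SE 0.18) did not overlap between the groups, although with slide as a block they stood at -0.24 and -0.19. The oxidative phosphorylation list had 11 of 41 lower and 6 higher, with a median of -0.16, although its smallest p values belonged to the higher ATP synthase subunit genes Atp5l (0.63) and Atp5h (0.51). The medians of both lists stayed negative under each of the 29 alternatives. Under spike-in centring, where the median of all genes was -1.23, that sign is not particular to these lists. Normexp moved the brightest class, which holds 30 of the 41 oxidative phosphorylation genes, to a median of -0.80. Ribosomal protein genes had 7 of 59 higher, among them Rpl41 (0.59) and Rplp1 (0.66), and 3 lower, with a median of 0.05 that was -0.34 with quantile normalization. The probes of such genes can also match processed pseudogenes, and the Rplp1 probe is placed on the X chromosome. The Atp5l probe is placed on the X chromosome too, the H3f3a probe on chromosome 8 and the Cd79a probe on chromosome 12. Whether these are the positions of the genes themselves was not determined. Aminoacyl-tRNA synthetase genes had 1 of 7 higher, Dars (0.40), and 1 lower, Mars1 (-0.51), histone genes 2 of 14 higher, H1f4 (0.87) and H3f3a (0.51), and 1 lower, immediate-early and stress genes 2 of 15 higher, Jund (0.55) and Nr4a1, and 1 lower, and only 3 MHC class I and immunoproteasome genes were tested, none of them at this limit.

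**Figure D4:**
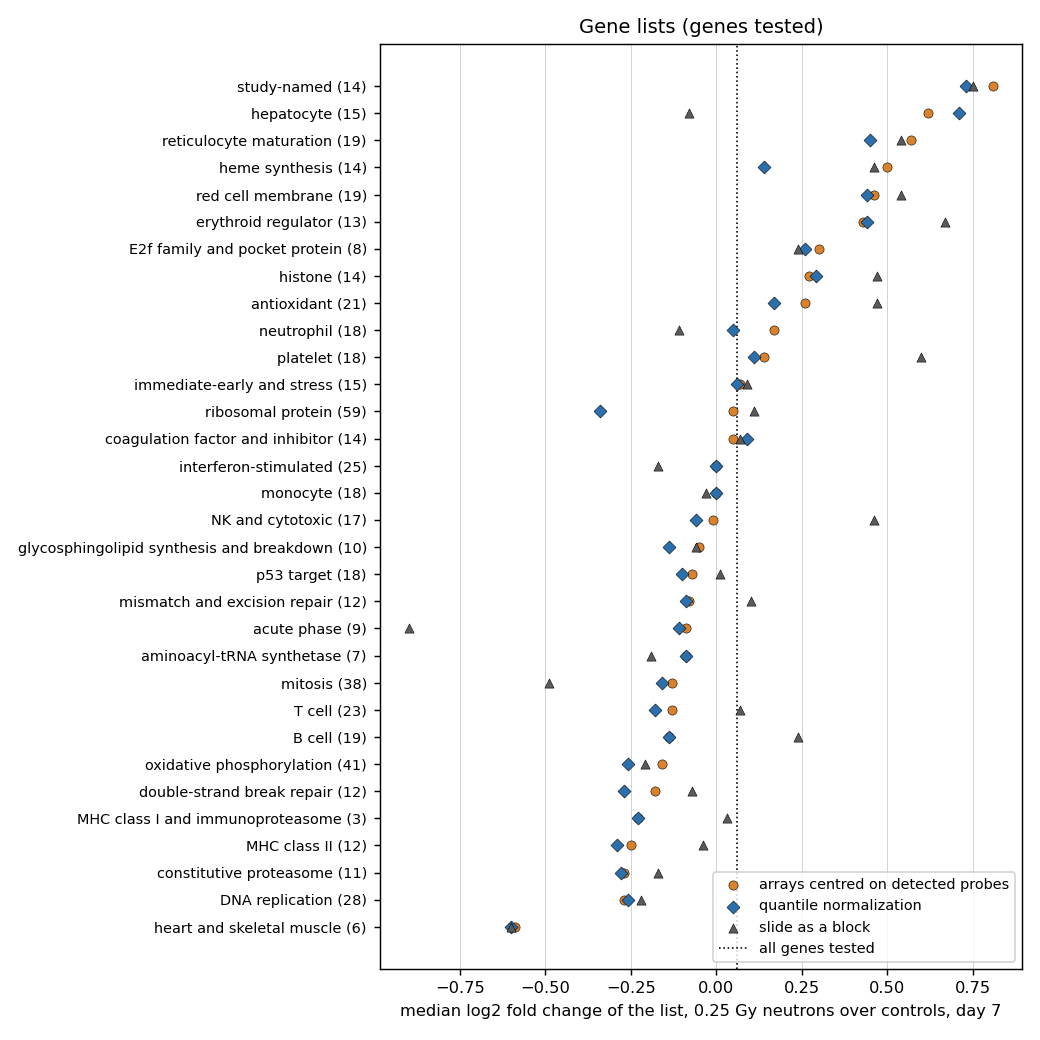
Each row is a gene list with the number of its genes tested, and the x axis gives the median log2 fold change of 0.25 Gy neutrons over controls at day 7 under 3 settings of the analysis, the dotted line being the median of all genes. The study-named and the 4 red cell lists lie right of the line in the 3 settings, and DNA replication, constitutive proteasome and oxidative phosphorylation left of it.

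The design allows the day 7 effect to be set against the effect of the same dose on earlier days, each over its own controls. Days 1 and 3 each had 6 neutron mice and 5 controls. The test of the difference called 143 genes for day 7 minus day 1 (1.32%), of which 134 were higher at day 7, and 233 for day 7 minus day 3 (2.14%), of which 219 were higher. These counts ran from 5 to 269 and from 16 to 401 when 1 mouse was left out, and with spike-in centring 2 of 2480 and 10 of 603 were higher. For day 1, normexp gave 355 higher of 529, and for day 3, leaving out control 2 of day 3 gave 175 higher of 350. B230398E01Rik differed from both days, by 2.15 (SE 0.44, FDR 0.0329 by limma) from day 1 and by 3.34 (SE 0.39, FDR 0.000239) from day 3. Over the controls of the same day it stood at 0.07 at day 1 and at -1.12 at day 3. A4galt differed from day 3 by 1.46 (SE 0.30, FDR 0.0259), and its difference from day 1, 0.78 (SE 0.28), had an FDR of 0.156. For F9 neither difference was called (0.26, SE 0.60, and 0.57, SE 0.30). The hepatocyte list had medians of 1.77, 4.50 and 0.62 over the controls of days 1, 3 and 7. Whether liver transcripts bear on the F9 comparison between days was not tested. Xntrpc, Pifo and Mapk1ip1l were called against both days, and Defb9 and Rs5-8s1 against day 3. At day 3 these genes stood at -0.98, -0.85, -0.95, -0.86 and -1.21 over their controls, so part of each difference from day 3 was a negative day 3 effect. At day 1 Xntrpc, Pifo and Mapk1ip1l stood at -0.44, -0.26 and -0.19.

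Of the red cell and study-named genes, those called for day 7 minus day 1 were Slc25a37 (1.46), Ube2o (1.47), Wdr26 (1.58), Anp32e (1.72), E2f2 (1.40), Bsdc1 (1.47) and Eif5 (1.40), all measured as higher at day 7, and none of the named ones was called for day 7 minus day 3. At day 1 the genes called here stood at -0.73 (Ube2o) to -0.41 (Eif5) over the controls of that day. The list medians over the controls of the same day ran -0.17, 0.71 and 0.57 at days 1, 3 and 7 for reticulocyte maturation, 0.06, 0.63 and 0.50 for heme synthesis, -0.33, 1.00 and 0.46 for red cell membrane and 0.19, 0.51 and 0.43 for erythroid regulators. For B cell genes they ran -0.96, -1.01 and -0.14, and for MHC class II genes -0.78, -0.92 and -0.25. Of these lists, 2 of 19 B cell genes were called for day 7 minus day 3 and none of 12 MHC class II genes was called against either day.

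The higher neutron dose was tested directly against the lower one at day 7, with 6 mice after 1 Gy and the 5 after 0.25 Gy. Of the genes tested, 31.1% were called, 2341 higher and 1034 lower at 1 Gy. The higher ones were 1624 of 2978 with quantile normalization, 1370 of 3437 with dim spots missing, 35 of 87 under normexp and 199 of 3507 with spike-in centring. The genes called were 16 of 19 in the reticulocyte, 13 of 14 in the heme, 8 of 13 in the regulator and 16 of 19 in the membrane list, all 14 study-named genes, 16 of 19 B cell and 9 of 12 MHC class II genes. Alas2 was higher at 1 Gy by a further 1.44 (SE 0.17) and Cat by 1.83 (SE 0.24). The 3 genes called at 0.25 Gy were not among them: B230398E01Rik differed by 0.74 (SE 0.40, FDR 0.142 by limma), A4galt by 0.40 (SE 0.28, FDR 0.264) and F9 by 0.15 (SE 0.29, FDR 0.687). Over the same 6 controls, which both doses share, these genes stood at 2.96, 1.61 and 1.34 after 1 Gy and at 2.22, 1.21 and 1.18 after 0.25 Gy. The B cell median was -2.19 after 1 Gy and -0.14 after 0.25 Gy, and the red cell membrane median 2.78 and 0.46.

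**Figure D5:**
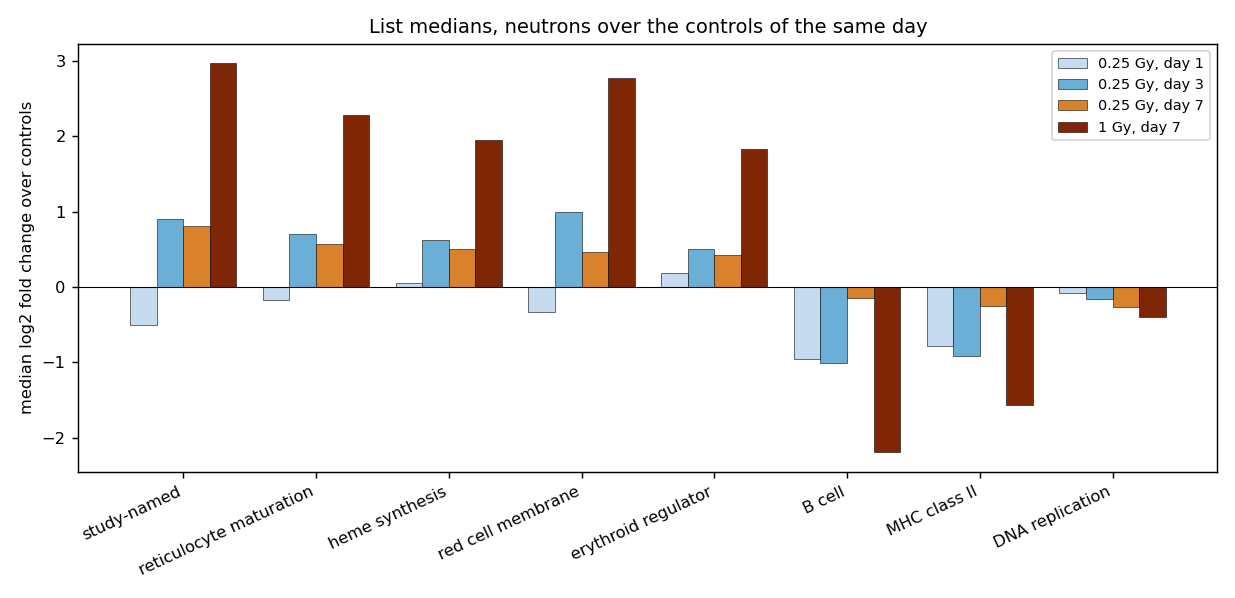
Bars give the median log2 fold change of each list over the controls of the same day, for 0.25 Gy neutrons at days 1, 3 and 7 and for 1 Gy neutrons at day 7, where both doses share the controls. At day 7 after 0.25 Gy the red cell lists stand at 0.43 to 0.57 and the B cell list at -0.14.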

How the data were processed

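The deposited files hold, per array, the intensity of each spot as the authors' Feature Extraction 12.0.2 wrote it, background-corrected and not normalized between arrays, with quality flags. Non-uniform and population outlier spots were left out, intensities were log2-transformed and replicate spots averaged, and the median of the detected probes was subtracted array by array. As in the study's methods, probes were kept when under 25% of their spots at days 1 and 7 carried an outlier or dim flag and when 20% of these arrays differed 1.5-fold from the probe's median, and the brightest probe stood for its gene. Groups were compared with limma 3.58.1 in R 4.3.3 over all genes, with Benjamini-Hochberg adjustment. The test was checked on simulated data. Genes named were those called, the 10 largest differences in each direction at p below 0.001 without overlap (filled by smallest p), the first 2 of each list at p below 0.05, and all such members of the study-named and E2f lists. Members and lists were chosen with earlier results of these data known. For 28330 of 39429 probes the name came through a RefSeq accession. The number of arrays limits the precision. The authors' table of normalized log2 values was not used. Alternatives were other centrings, normalizations, backgrounds, filters and tests, blocks for slide or replicate number, and each mouse left out. Arrays of groups not named in the report entered the probe filters. Among the alternatives they also entered the quantile normalization, the choice of spike-in spots and the fit of all day 7 groups. Some results are not reported here.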

Additional observations from a re-analysis of the deposited data

Results flagged for a closer look

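In the values used, a test of the difference between the days called 143 genes for day 7 minus day 1 and 233 for day 7 minus day 3. Across settings the first count ran from 4 with dim spots missing to 2480 with spike-in centring. The second ran from 1 with normexp to 603 with spike-in centring, and was 5 with slide as a random block. Among the named genes, the difference from day 1 was 2.15 for B230398E01Rik, 2.48 for Xntrpc, 2.14 for Pifo, 1.88 for Mapk1ip1l, 1.72 for Anp32e, 1.58 for Wdr26, 1.47 for Bsdc1, 1.47 for Ube2o, 1.46 for Slc25a37, 1.40 for E2f2 and 1.40 for Eif5 on the log2 scale. The difference from day 3 was 3.34 for B230398E01Rik, 3.33 for Rs5-8s1, 3.02 for Xntrpc, 2.73 for Pifo, 2.64 for Mapk1ip1l, 2.50 for Defb9 and 1.46 for A4galt. The day 1 effects of the genes named for day 1 were -0.73 (Ube2o) to 0.07 (B230398E01Rik). Those of day 3 for the genes named for day 3 were -1.21 (Rs5-8s1) to -0.25 (A4galt).

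Single mice stood apart from their group in 10 of 234 sets of values examined with Dixon's criterion (4.27%), where chance gives about 5%. Neutron mouse 1 was low for Ahsp (5.20, next 6.54) and Tfdp2 (5.87, next 6.56). Neutron mouse 4 was high for Fgb (0.62, next -0.78) and for the means of the hepatocyte (2.36, next 0.23) and coagulation lists (1.27, next 0.07), each relative to the controls. Neutron mouse 2 was low for the mean of the platelet list (-0.84, next 0.22), and neutron mouse 5 for Slc22a5 (-3.58, next -2.92). Control 6 was low for A4galt (-1.87, next -1.60) and E2f2 (5.49, next 5.96), and control 2 for Mtmr3 (3.00, next 3.85).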

How the results depend on the processing

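The number of genes called for 0.25 Gy against controls at day 7, 3 in the values used, rested on small shifts around the FDR limit, since an FDR limit of 10% gave 176. It was 11 with quantile normalization, 203 with the 75th percentile, 1 with the median over all spots, 206 without the detection filter, 88 without the fold filter, 35 with the mean of probes, 102 with the random variance t-test, 139 with an intensity trend, 120 with all day 7 groups in 1 fit, 198 with normexp (67 higher and 131 lower) and 6577 with spike-in centring (1 higher), which lowered the median of all genes to -1.23. It was 0 with slide as a block (32 genes at p below 0.001, 17 higher), within the shared slide (15, 1 higher), with the share of spots well above background as a covariate (15) and with the replicate block (7), and 2 with slide as a random block, where the correlation within slides was 0.07. Same-numbered mice deviated together in 2 of 5 pairs only (correlations -0.50 to 0.35), and 1 of 5 correlated best with its own number, so the numbers were not taken to pair the mice. Leaving out 1 mouse gave 0 to 311 calls. These were 0 without neutron mouse 2, 3 or 4 or control 3, 4 or 6, 1 without neutron mouse 5, 5 without control 5, 30 without control 1, 197 without neutron mouse 1 and 311 without control 2.

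Across 29 alternatives B230398E01Rik was called in 18 (1.01 to 2.42), A4galt in 15 (0.00 to 1.31) and F9 in 14 (-0.02 to 1.28). With spike-in centring A4galt was at 0.00 and F9 at -0.02, and Mapk1ip1l and Rplp1, higher before, were called lower at -1.42 and -1.27. Since the brightest probe is taken after the fold filter, another probe can stand for a gene from one setting to the next. Mapk1ip1l also had the opposite sign without the fold filter, where the centring was unchanged. For day 7 minus day 1, 143 became 2480 with spike-in centring, 529 with normexp, 4 with dim spots missing and 5 to 269 leaving out 1 mouse. That count moved by over 1.5 times without each of the mice concerned except neutron mouse 1 and control 1 of day 7 and neutron mouse 3 and control 3 of day 1. For day 7 minus day 3, 233 became 603 with spike-in centring, 1 with normexp, 127 with dim spots missing, 5 with slide as a random block, and 16 to 401 leaving out 1 mouse. Here the exceptions were neutron mouse 1 and controls 1 and 2 of day 7, and neutron mice 1 and 2 and control 1 of day 3. For 1 Gy minus 0.25 Gy, 3375 became 87 with normexp and 2717 to 3736 leaving out 1 mouse. The normexp offset of 50 exceeds the median signal of 10 of the 11 arrays. The slide as a random block and the single slide were chosen after seeing the data. The cause of these shifts was not tested.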
